A study of Mus musculus with 2 samples.

Results

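The enzymes that burn glucose to lactate, store it as glycogen and release it again were read in gastrocnemius muscle, the large calf muscle, of C57BL/6 mice aged 8 weeks. The set holds 39 genes of the 34745 in the count table, chosen by name and matched through Ensembl identifiers to GENCODE M21 symbols. It covers the enzymes of glycolysis, glycogen synthesis and breakdown, the fructose bisphosphatase step and the glycerol phosphate shuttle. Proteins that target glycogen, which are not enzymes, are included. All 39 were found. There were 2 RNA-seq libraries, 1 of genotype Cry2flox/flox (Cry2flox) and 1 of genotype Cry2scko. Cry2 encodes cryptochrome 2, which represses clock-driven transcription, and flox denotes an allele built so that a recombinase can remove a stretch of it. The labels do not spell out scko, do not name the recombinase or the cells in which it acts, and are silent on the time of day at collection and on pooling of animals. The series title names satellite cells, the stem cells of muscle, while the samples are labelled as gastrocnemius muscle.

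Muscle fibres break glucose and glycogen down to pyruvate in the cytosol, and fast fibres, which make up most of the mouse gastrocnemius, rely on this route for short bursts of work. Muscle uses its own isozymes at many steps (Pfkm, Pgam2, Eno3, Pygm and others), while other cell types carry the liver, brain or widely expressed forms. Glycogen, a branched glucose polymer, is built from UDP-glucose by glycogen synthase and taken apart by glycogen phosphorylase, which phosphorylase kinase switches on when calcium rises. The circadian clock of muscle is known to give genes of glucose handling a daily rhythm, acting through E-boxes, the short DNA motif that the clock activators CLOCK and BMAL1 bind and that cryptochromes restrain.

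The clock motif was looked up in RefSeq promoter windows (build GRCm38.p6, 250 bases before to 50 bases after a start site) because Cry2 acts through it. The letters searched were CACGTG, which read the same on both strands. Of the 39 genes, 38 had a window, and Gpd1 had none. The motif stood in at least 1 window of 7 of these 38 genes (18.4%), against 2187 of 27025 genes with a window (8.09%). Counted by window it was 7 of 57 (12.3%), against 7.15% of all 32851 windows. The 7 genes were Ldha, Fbp2, Pfkfb2, Pfkfb3, Pfkm, Gyg and Ppp1r3c, and in Gyg the motif lay after the start site. A match describes these letters only and is not a binding site. Up to 250 bases before the start site are given for 4 of them, without the bases that GENCODE M21 annotates as exon of the gene, chosen after their values were seen because they act at different steps and their ratios point both ways, with the motif in capitals. Ldha (chr7:46845554-46845803, plus strand, 1 of its several start sites, inside the annotated gene because another transcript starts farther upstream) holds it at 145 and at 48 bases before the start site, Fbp2 (chr13:62858423-62858650, minus strand) at 42, Pfkfb3 (chr2:11502102-11502340, minus strand, 1 of its several start sites) at 53 and Ppp1r3c (chr19:36736654-36736854, minus strand) at 104. Distances are counted from the RefSeq start site to the first base of the motif, and each stretch is written 5′ to 3′ on the strand of its gene.
Ldha: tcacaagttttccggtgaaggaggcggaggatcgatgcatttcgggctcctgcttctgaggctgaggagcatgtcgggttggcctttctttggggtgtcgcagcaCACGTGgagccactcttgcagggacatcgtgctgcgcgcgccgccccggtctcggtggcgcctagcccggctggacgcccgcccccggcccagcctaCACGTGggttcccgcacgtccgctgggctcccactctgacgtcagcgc
Fbp2: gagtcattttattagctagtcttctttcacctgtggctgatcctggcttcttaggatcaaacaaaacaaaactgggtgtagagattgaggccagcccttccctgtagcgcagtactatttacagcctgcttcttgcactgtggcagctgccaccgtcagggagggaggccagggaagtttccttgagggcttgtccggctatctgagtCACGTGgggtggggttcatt
Pfkfb3: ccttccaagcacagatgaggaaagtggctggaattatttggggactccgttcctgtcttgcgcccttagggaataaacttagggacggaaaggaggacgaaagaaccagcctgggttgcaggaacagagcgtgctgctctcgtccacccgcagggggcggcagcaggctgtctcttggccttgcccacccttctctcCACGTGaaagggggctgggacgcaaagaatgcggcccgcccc
Ppp1r3c: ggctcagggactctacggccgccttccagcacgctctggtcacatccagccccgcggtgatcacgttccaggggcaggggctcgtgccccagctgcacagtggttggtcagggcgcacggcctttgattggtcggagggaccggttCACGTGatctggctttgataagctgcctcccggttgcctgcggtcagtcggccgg

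The libraries held 18909433 reads (Cry2flox) and 16423884 reads (Cry2scko) on genes, of which the 39 genes took 3.64% and 3.48%. Levels are given as CPM, reads scaled to a common library size after TMM normalisation, and ratios are Cry2scko over Cry2flox on the log2 scale with an exact 95% counting interval. A gene was counted as measured from a mean CPM of 1, and as past the 2-fold rule where its levels differed 2-fold or more with an interval clear of equality. There were no replicates, so animals could not be compared by a test and p-values are left out. The intervals cover counting error only, and PCR reads without molecular identifiers can make even that error larger. Cry2 itself had 676 and 133 reads, a log2 ratio of -2.16 (-2.44 to -1.89) or 4.46-fold lower in Cry2scko. All 10 muscle fibre genes looked up (Acta1, Ckm, Des and others) were measured, with summed levels of 131015 and 124635 CPM.

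None of the glycolysis and glycogen genes passed the 2-fold rule, and most lay slightly lower in Cry2scko. Of the 39 genes 38 were measured, 0 passed the rule and 0 passed it at 1.5-fold, while 4.88% (3.37% higher, 1.51% lower) and 10.9% (6.56% higher, 4.35% lower) of the 12832 measured genes did. The ratios ran from -0.39 (Gpd2 and Pygb) to 0.30 (Gpi1), so that all 38 lay within 1.5-fold, as did 87.2% of all genes. Of the 38, 24 were abundant, here a mean of at least 100 CPM. Among all 950 abundant genes 96.0% lay within 1.5-fold, and 13 passed the 2-fold rule higher and 4 lower. At 1.5-fold 20 of the 950 passed it higher and 18 lower. The ratio was below 1 in 29 of 38 (76.3%), against 50.5% of all genes and 61.9% of the abundant genes. The median of the 38 was -0.13 on the log2 scale (quartiles -0.18 and -0.03), beside -0.00 for all genes and -0.04 for the abundant ones. Summed over the measured genes, the level was 36666 CPM in Cry2flox and 34601 CPM in Cry2scko, a log2 ratio of -0.08.

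Because these genes are deeply read, many small ratios had intervals that exclude 1. This held for 28 of the 38, with 22 lower and 6 higher in Cry2scko, against 33.5% of all measured genes (17.3% lower, 16.3% higher). Among the abundant genes it held for 65.8%, with 43.2% lower and 22.6% higher, and 24 glycolysis and glycogen genes fall in that range, of which 17 were lower and 5 higher. The 6 higher genes were Gpi1, Ldhb, Ppp1r3c, Pfkfb3, Gys1 and Aldoa. Such an interval separates 2 libraries and not the genotypes.

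**Figure D1:**
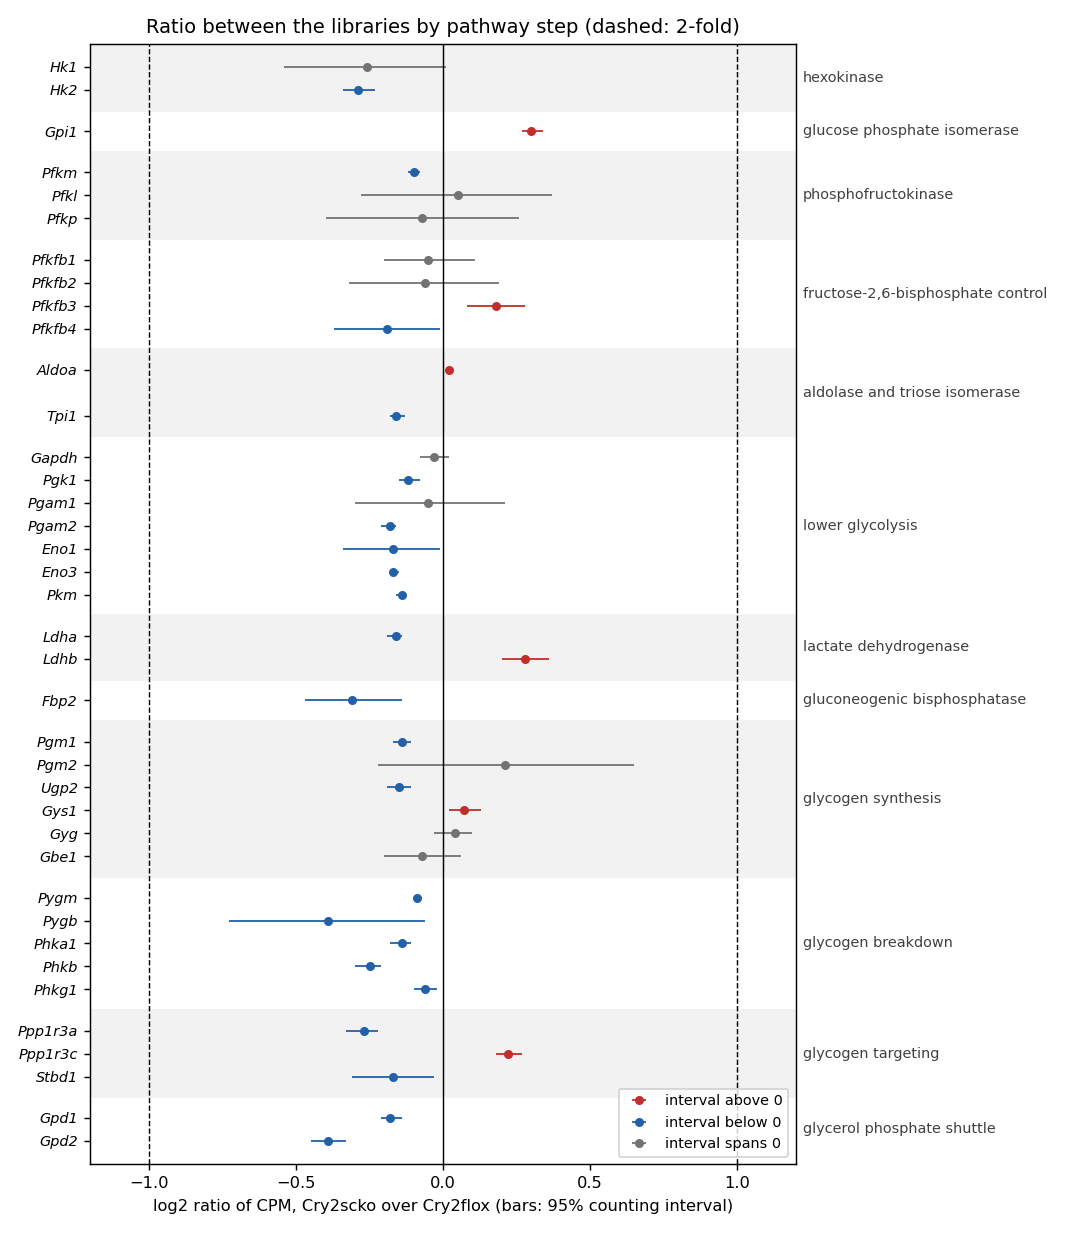
Log2 ratio of CPM, Cry2scko over Cry2flox, for the 38 measured genes grouped by pathway step. Points are the ratio of 1 library to 1 library, bars the 95% counting interval, dashed lines a 2-fold ratio. All points lie between -0.39 and 0.30, with 29 of 38 left of 0.

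**Figure D2:**
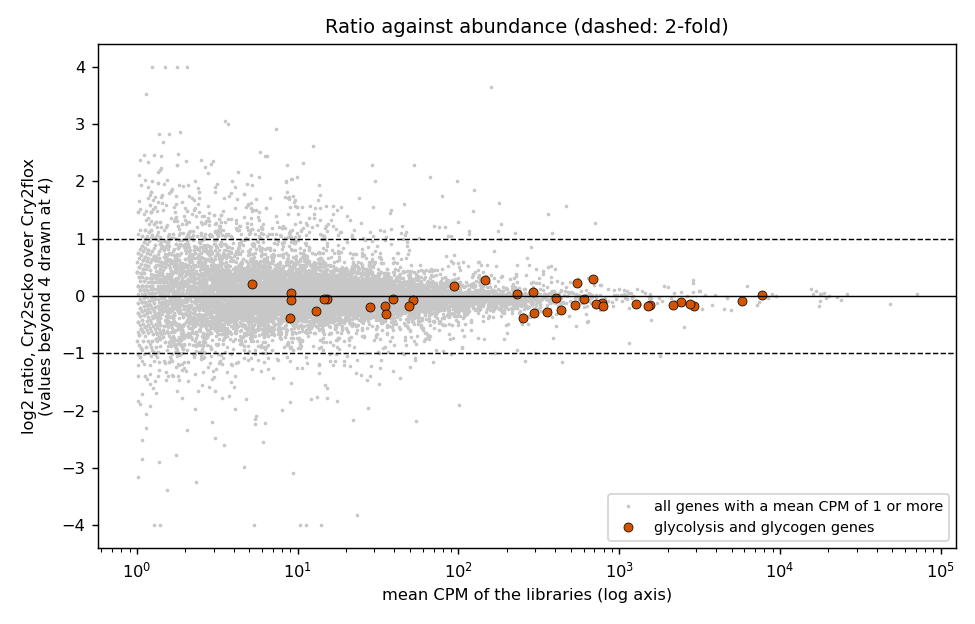
Log2 ratio (vertical) against mean CPM of the libraries (horizontal, log axis) for all 12832 measured genes in grey and the 38 glycolysis and glycogen genes in orange. The orange points stay inside the dashed 2-fold lines over the whole range of abundance and sit mostly below 0.

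Where a step has a muscle isozyme and others, the muscle form held most of the family in both libraries, and at several steps nearly all of it. Levels of different genes are compared per length, as CPM per kb of the principal transcript of GENCODE M21, a scale added after the deposited values were seen. The deposited FPKM values, also per length, are given beside them, since the lengths behind these were longer. The length that FPKM and counts imply was a median of 1.81 times the principal transcript over the 39 genes, from 0.979 times (Fbp2) to 6.07 times (Gapdh), and for 5 genes it was longer than the gene itself. Shares below are of CPM per kb within a family, in Cry2flox and then Cry2scko.

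Pfkm held 99.5% and 99.4% of phosphofructokinase, Pgam2 99.6% and 99.5% of phosphoglycerate mutase, Eno3 99.1% in both of enolase and Pygm 99.8% and 99.9% of glycogen phosphorylase. The shares were smaller for Hk2, at 91.8% and 90.9% of hexokinase. Ldha held 92.7% and 90.3% of lactate dehydrogenase, or 88.1% and 84.4% by FPKM. These shares belong to fibres and other cells together, as the tissue was not separated. The family without a leader was that of the bifunctional Pfkfb enzymes. There Pfkfb1 held 42.4% and 40.6%, Pfkfb3 35.2% and 39.5%, Pfkfb4 15.9% and 13.8% and Pfkfb2 6.49% and 6.14%. With the deposited FPKM the order was the same, with Pfkfb1 at 46.0% and 44.8% and Pfkfb3 at 27.5% and 31.4%.

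By CPM per kb the most abundant genes were Aldoa, Pygm, Eno3 and Pgam2, at 5100, 2074, 1978 and 1919 in Cry2flox and 5181, 1954, 1762 and 1693 in Cry2scko. The deposited FPKM gave another order, led by Pgam2 at 1906 and 1705, followed by Aldoa at 1295 and 1334 and Pygm at 1296 and 1238. The order among these top genes therefore rests on the lengths used, while both scales put Aldoc last. Gapdh, the enzyme that oxidises glyceraldehyde phosphate and a common reference gene, ranked 11 of the 39 by CPM per kb and 20 by FPKM. It had 289 and 283 CPM per kb, above Gpi1 (214 and 264) and Hk2 (59.1 and 48.5) and 18.0-fold under Aldoa over both libraries on that scale and 27.9-fold under it by FPKM. Annotated transcripts of 78 other genes matched Gapdh at 95% identity or more over at least 200 bases, the most of any of the 39 genes, and 6 of these had a row in the count table, with 70 reads in each library. How reads matching several genes were counted is not stated in the sources used here, and its part in the level of Gapdh was not tested.

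**Figure D3:**
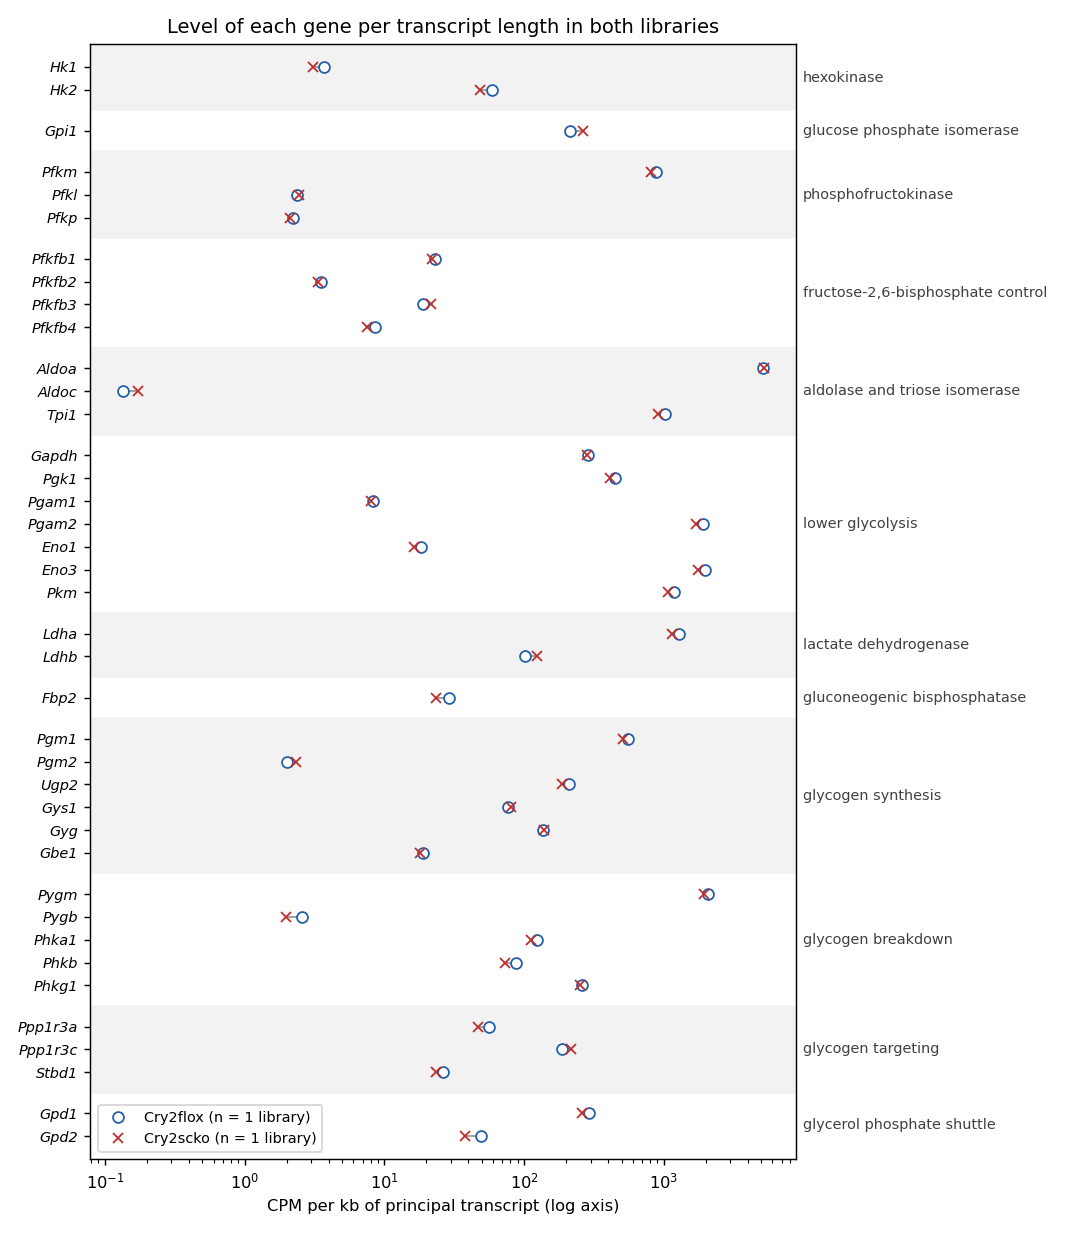
Level of each of the 39 genes as CPM per kb of principal transcript (log axis), with open circles for the Cry2flox library and crosses for the Cry2scko library. The genes span from 0.134 (Aldoc) to 5181 (Aldoa), and within each gene the libraries lie close together.

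At the entry to glycolysis, hexokinase was lower and the isomerase higher in Cry2scko. Hk2 (ENSMUSG00000000628, GRCm38 chromosome 6, 82725025 to 82774454) is the insulin-responsive hexokinase of muscle and traps glucose in the fibre as glucose 6-phosphate. Its level was 326 CPM in Cry2flox (6116 reads, 47.2 FPKM) and 267 CPM in Cry2scko (4420 reads, 39.2 FPKM), a log2 ratio of -0.29 (-0.34 to -0.23). Hk1, the widely expressed form, had a similar ratio of -0.26 on 267 and 196 reads, with an interval of -0.54 to 0.01 that includes no difference. The balance of Hk2 to Hk1 was therefore near equal in the libraries, with a log2 ratio of ratios of -0.02 (-0.30 to 0.26). Pairs compared in this way, here and below, were chosen after their values were seen, so their intervals do not allow for that choice.

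Gpi1 (ENSMUSG00000036427, chromosome 7, 34201330 to 34230336) turns glucose 6-phosphate into fructose 6-phosphate and had the highest ratio of the 38 measured genes. Its level was 618 CPM (11601 reads, 67.0 FPKM) and 762 CPM (12606 reads, 83.9 FPKM), 0.30 (0.27 to 0.34) or 1.23-fold higher. Its near-identical copy Gm1840 had 1280 and 1044 reads and did not share this direction, at -0.11 (-0.23 to 0.01). With the reads of the copy added, Gpi1 was at 0.27 (0.23 to 0.30).

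The committed step differed little. Pfkm (ENSMUSG00000033065, chromosome 15, 98092589 to 98132451), the muscle phosphofructokinase, had 47242 reads (2516 CPM, 845 FPKM) and 38814 reads (2347 CPM, 799 FPKM), a log2 ratio of -0.10 (-0.12 to -0.08). The liver form Pfkl, on 167 and 152 reads, was at 0.05 (-0.28 to 0.37), and the platelet form Pfkp, on 174 and 146 reads, at -0.07 (-0.40 to 0.26). Differences inside these intervals were not detectable at this depth. Fructose 2,6-bisphosphate, the strongest activator of phosphofructokinase, is made and removed by the Pfkfb enzymes. Pfkfb3, the form with the strongest kinase activity, had 1653 and 1650 reads or 88.0 and 99.8 CPM, at 0.18 (0.08 to 0.28). Pfkfb1 (ENSMUSG00000025271, chromosome X, 150588229 to 150643878) had 747 reads (39.8 CPM, 7.73 FPKM) and 636 reads (38.5 CPM, 7.58 FPKM), at -0.05 (-0.20 to 0.11). Pfkfb2, on 291 and 245 reads, was at -0.06 (-0.32 to 0.19), and Pfkfb4, on 561 and 433 reads, at -0.19 (-0.37 to -0.01). Pfkfb3 was thus the only one of the 4 with an interval above 0, and the ratio of Pfkfb1 to Pfkfb3 was 1.17-fold smaller in Cry2scko.

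From aldolase to pyruvate kinase, the muscle isozymes other than Aldoa lay lower by a similar small amount. Aldoa (ENSMUSG00000030695, chromosome 7, 126795234 to 126800751), which splits fructose 1,6-bisphosphate, had 144690 reads and 129468 reads, or 7705 and 7828 CPM and 1295 and 1334 FPKM, at 0.02 (0.01 to 0.03). Tpi1, which interconverts the resulting triose phosphates, had 1645 and 1474 CPM and was at -0.16 (-0.18 to -0.13). Its copy Tpi-rs11 had 527 and 620 reads, and with them added Tpi1 was at -0.15. Aldoc, the brain aldolase, was not measured, with 7 and 8 reads.

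By their own reads, all 7 genes of lower glycolysis had ratios below 1, between -0.18 and -0.03, and 5 of them had intervals below 0. Over all measured genes 50.5% had a ratio below 1 and 17.3% an interval below 0. Over the abundant genes it was 61.9% and 43.2%. Pgam2 (ENSMUSG00000020475, chromosome 11, 5801640 to 5803733), the muscle phosphoglycerate mutase, had 30272 reads (1612 CPM, 1906 FPKM) and 23518 reads (1422 CPM, 1705 FPKM), at -0.18 (-0.21 to -0.16). Eno3, the muscle enolase, had 3093 and 2756 CPM and was at -0.17 (-0.18 to -0.15). Pkm, pyruvate kinase, had 2874 and 2602 CPM, at -0.14 (-0.16 to -0.13), and Pgk1, phosphoglycerate kinase, had 818 and 754 CPM, at -0.12 (-0.15 to -0.08). The broadly expressed Eno1 had 37.1 and 32.9 CPM and was at -0.17 (-0.34 to -0.01), the same as Eno3, so the Eno3 to Eno1 balance did not move beyond counting error (0.01, -0.16 to 0.17). With its coding copy Eno1b added, the interval of Eno1 included 0 (-0.28 to 0.03). Pgam1, on 277 and 236 reads, was at -0.05 (-0.30 to 0.21), and Gapdh, on 7695 and 6641 reads, at -0.03 (-0.08 to 0.02). With its copy Pgam1-ps2 (12 and 21 reads) added, Pgam1 was no longer below 1, at 0.01 (-0.23 to 0.26).

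The genes of the 2 lactate dehydrogenase chains differed in opposite directions, each with an interval clear of 0. The enzyme is a tetramer of A chains, typical of fast fibres, and B chains, typical of heart and slow oxidative fibres. Ldha (ENSMUSG00000063229, chromosome 7, 46841475 to 46855627) had 42671 reads (2272 CPM, 492 FPKM) and 33533 reads (2027 CPM, 445 FPKM), a log2 ratio of -0.16 (-0.19 to -0.14). Ldhb (ENSMUSG00000030246, chromosome 6, 142490249 to 142507957) went the other way, with 2483 reads (132 CPM) and 2654 reads (160 CPM), at 0.28 (0.20 to 0.36). Ldhb therefore made up 7.30% of the family in Cry2flox and 9.68% in Cry2scko by CPM per kb (11.9% and 15.6% by FPKM). The ratio of Ldha to Ldhb was 12.7 and 9.33, 1.36-fold smaller in Cry2scko, with a log2 ratio of ratios of -0.44 (-0.53 to -0.36) that does not depend on the scaling between libraries. Near-identical annotated copies of Ldha (4) and Ldhb (1) were not analysed here, as they are not among the rows used.

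Slow-fibre genes differed in the same direction as Ldhb and by more. All 12 of the slow-fibre list had ratios above 1, from 0.55 (Myl2) to 1.61 (Tnni1), while 50.5% of all measured genes had a ratio below 1. The slow-fibre genes had summed levels of 1552 and 3209 CPM, while the 12 fast-fibre genes had 149348 and 142637 CPM and a median ratio of -0.07. In bulk tissue, more cells of a type and more RNA per cell cannot be told apart. The part of slow fibres in the ratio of Ldhb was not tested.

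**Figure D4:**
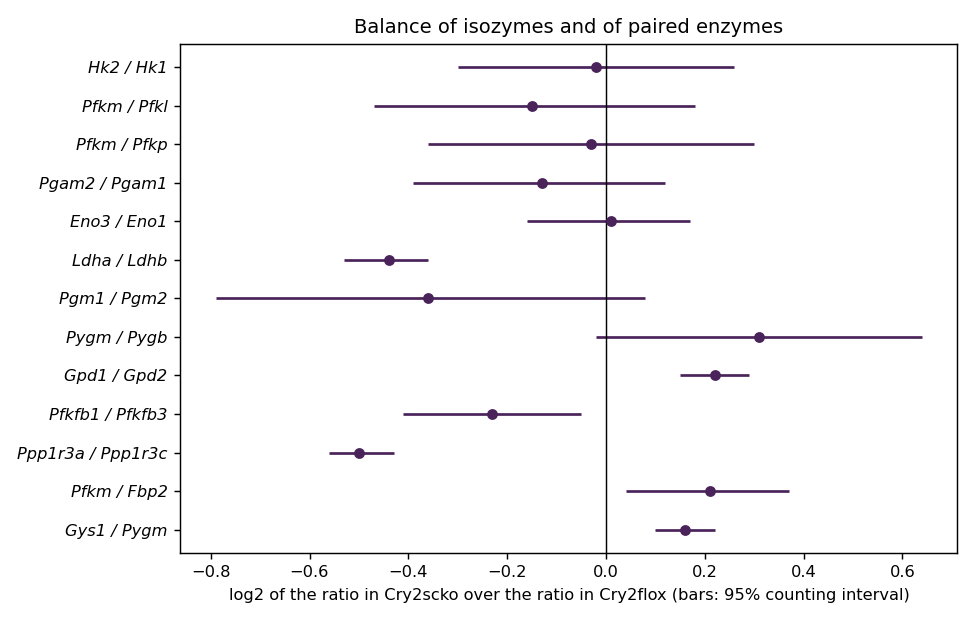
Balance of isozymes and of paired enzymes, as the log2 of the ratio of the first gene to the second in Cry2scko over that in Cry2flox, with 95% counting intervals. The pairs Ldha and Ldhb (-0.44) and Ppp1r3a and Ppp1r3c (-0.50) lie farthest from 0, while the intervals of Hk2 and Hk1, Eno3 and Eno1 and both Pfkm isozyme pairs include it. The pairs were chosen after their values were seen.

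Against the glycolytic flow, Fbp2 removes a phosphate from fructose 1,6-bisphosphate and is the muscle fructose bisphosphatase. Fbp2 (ENSMUSG00000021456, chromosome 13, 62836877 to 62858422) had 739 reads (39.4 CPM, 29.5 FPKM) and 526 reads (31.8 CPM, 24.2 FPKM), a log2 ratio of -0.31 (-0.47 to -0.14). It was 1.24-fold lower and so lay below its opposing kinase Pfkm, the ratio of Pfkm to Fbp2 being 30.1 in Cry2flox and 34.7 in Cry2scko, at 0.21 (0.04 to 0.37).

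Genes that build glycogen were mixed. Of the 6, 1 had an interval above 0, 2 below and 3 across it, with a median of -0.02. An interval above 0 was found for 16.3% of all measured genes and 22.6% of the abundant ones. One below 0 was found for 17.3% and 43.2%. The summed level of the 6 was 2458 and 2297 CPM, a log2 ratio of -0.10. Pgm1 (ENSMUSG00000025791, chromosome 4, 99929414 to 99987294), which links glucose 6-phosphate to glucose 1-phosphate, was the most abundant at 24895 reads (1326 CPM, 451 FPKM) and 19887 reads (1202 CPM, 415 FPKM), with a ratio of -0.14 (-0.17 to -0.11). Ugp2, which makes UDP-glucose, had 560 and 504 CPM and was at -0.15 (-0.19 to -0.11). The enzymes that act on the polymer itself were placed differently. Gys1, muscle glycogen synthase, had 284 and 298 CPM, at 0.07 (0.02 to 0.13). Gyg, the glycogenin primer, had 230 and 236 CPM, at 0.04 (-0.03 to 0.10), and Gbe1, the branching enzyme, 53.6 and 51.1 CPM, at -0.07 (-0.20 to 0.06). Pgm2, on 90 and 92 reads, was at 0.21 with an interval from -0.22 to 0.65.

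Genes that break glycogen down all had intervals below 0, 5 of 5, with ratios from -0.39 to -0.06. Such an interval was found for 17.3% of all measured genes and 43.2% of the abundant ones. The summed level of the 5, 7812 and 7292 CPM, gave the same log2 ratio of -0.10 as that of the synthesis genes. Pygm (ENSMUSG00000032648, chromosome 19, 6384399 to 6398459), muscle glycogen phosphorylase, had 111915 reads (5960 CPM, 1296 FPKM) and 92862 reads (5615 CPM, 1238 FPKM), at -0.09 (-0.10 to -0.07). The subunits of phosphorylase kinase, its activator, were not equally placed. Phkb, the beta subunit, had 470 and 394 CPM at -0.25 (-0.30 to -0.21), Phka1, the muscle alpha subunit, 753 and 682 CPM at -0.14 (-0.18 to -0.11), and Phkg1, the catalytic gamma subunit of muscle, 619 and 594 CPM at -0.06 (-0.10 to -0.02). The intervals of these subunits did not overlap each other. Pygb, the brain phosphorylase, had only 191 and 128 reads, at -0.39 (-0.73 to -0.06), and its ratio to Pygm had an interval that included no difference. The ratio of synthase to phosphorylase, Gys1 to Pygm, was 0.0372 in Cry2flox and 0.0415 in Cry2scko, 0.16 (0.10 to 0.22) on the log2 scale.

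The proteins that bring phosphatase 1 to glycogen pointed in opposite directions. Both Ppp1r3a, the subunit specific to striated muscle, and Ppp1r3c, also called PTG, favour glycogen storage by targeting the phosphatase to synthase and phosphorylase. Ppp1r3a (ENSMUSG00000042717, chromosome 6, 14713977 to 14755274) had 7356 reads (392 CPM) and 5358 reads (324 CPM), at -0.27 (-0.33 to -0.22). Ppp1r3c (ENSMUSG00000067279, chromosome 19, 36731731 to 36736653) had 9500 reads (506 CPM, 185 FPKM) and 9775 reads (591 CPM, 219 FPKM), at 0.22 (0.18 to 0.27). Ppp1r3a was the scarcer of the 2, and its ratio to Ppp1r3c per kb was 0.303 in Cry2flox and 0.214 in Cry2scko, 1.41-fold smaller. Stbd1, which anchors glycogen to membranes, had 976 and 765 reads at -0.17 (-0.31 to -0.03).

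The glycerol phosphate shuttle, which carries the electrons of glycolytic NADH to the respiratory chain, lay lower at both of its enzymes. Gpd2 (ENSMUSG00000026827, chromosome 2, 57237635 to 57370719), the mitochondrial enzyme, had 5354 reads (285 CPM) and 3592 reads (217 CPM), at -0.39 (-0.45 to -0.33) or 1.31-fold lower. Gpd1 (ENSMUSG00000023019, chromosome 15, 99717515 to 99725005), the cytosolic enzyme, had 15814 reads (842 CPM, 212 FPKM) and 12317 reads (745 CPM, 190 FPKM), at -0.18 (-0.21 to -0.14). Gpd2 thus differed by more than its partner, the ratio of Gpd1 to Gpd2 being 5.93 and 6.89, at 0.22 (0.15 to 0.29). Gpd1 is also a gene of adipocytes. Among all measured genes 50.5% had a ratio below 1 and 17.3% an interval below 0. Most of the adipocyte list had ratios in the same direction as Gpd1, 8 of its 9 measured genes, 5 of them with an interval below 0. Its summed level was 3354 and 2393 CPM, but most of that was Car3 (3013 and 2072 CPM), which muscle fibres also express. Without Car3, a choice made after the values were seen, the sums were 341 and 321 CPM, a log2 ratio of -0.09. The most abundant of the rest, Fabp4, was at -0.02 (-0.08 to 0.04), and Lipe was at 0.17 (-0.04 to 0.38). All 10 adipocyte genes had reads in both libraries, and their part in the ratio of Gpd1 was not tested.

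In summed level, several lists of other cell types differed by more than the glycolysis and glycogen genes, while the Schwann cell and endothelial lists differed by less. Among all measured genes 50.5% of ratios were below 1, with 17.3% of intervals below 0 and 16.3% above. Tendon and matrix genes summed to 1783 and 1087 CPM, with 11 of 11 measured ratios below 1, and lymphocyte genes to 127 and 332 CPM, with 10 of 10 above 1. The enzymes at a low level in this tissue, such as Hk1, Pfkl, Pfkp, Pgam1, Eno1 and Pygb, are also made in such cells, and the part of those cells in their ratios was not tested. Their ratios ranged from -0.39 (Pygb) to 0.05 (Pfkl). Macrophage and granulocyte genes summed to 80.7 and 102 CPM, with 5 of 7 measured ratios above 1, and erythrocyte genes to 47.2 and 57.4 CPM, with 4 of 5 above 1. Schwann cell and nerve genes summed to 201 and 195 CPM with a median ratio of -0.01. Endothelial genes summed to 520 and 514 CPM, with 4 intervals above 0, 3 below and a highest ratio of 0.84 (0.55 to 1.14) in Cldn5.

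A further list of 45 genes of the same pathways served as context, of which 32 were measured. Of these 1 passed the 2-fold rule, Pck1, which was lower, against 4.88% of all genes in either direction and 1.51% in the lower direction. Pck1, phosphoenolpyruvate carboxykinase, makes phosphoenolpyruvate for gluconeogenesis in liver and glycerol phosphate in fat. It had 138 reads (7.35 CPM) and 50 reads (3.02 CPM), at -1.27 (-1.78 to -0.81), and it is itself 1 of the adipocyte genes. The 9 measured genes of that list ranged from -1.27 (Pck1 and Adipoq) to 0.17 (Lipe) with a median of -0.54, and their part in the ratio of Pck1 was not tested. The other 31 genes were within the rule, and no further one differed by 1.5-fold with an interval that excludes 1. The median of the 32 was -0.08. Pklr, Fbp1 and G6pc2, enzymes of liver, kidney or islet, had 0 reads in both libraries, a count that allows a level of up to 0.160 CPM (Cry2flox) or 0.181 CPM (Cry2scko) when 3 reads are taken as its limit.

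Overlapping genes shared exon bases with 16 of the 39, mostly on the opposite strand, and whether reads were assigned by strand is not given in the sources used here. For 2 enzymes the other gene was sizeable beside them. Pitrm1, with 788 and 665 reads, had more reads than Pfkp (174 and 146) and covers 5.58% of its exon bases, and Yod1, with 100 and 120 reads, covers 2.12% of those of Pfkfb2 (291 and 245). Reads of these enzymes cannot be fully separated from those of their neighbours. Without the 16 genes the median of the remaining 22 measured was -0.15, with 0 past the 2-fold rule.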

How the data were processed

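Several kinds of values were used. Gene-level counts of reads, whole numbers without normalisation, come from a table the authors deposited, and FPKM values from 1 file per library, also made by the authors. CASAVA, HISAT2 2.0.4, StringTie 1.3.0 and GRCm38 are named in the submitters' processing notes. The read counter, annotation release and strand setting are not given in the sources used here. In 16284 genes with reads in both libraries, counts and FPKM implied the same gene length within 0.1 percent in 100%.

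Counts were scaled with TMM (edgeR 4.0.16, R 4.3.3), with factors of 0.993 for Cry2flox and 1.01 for Cry2scko. The log2 ratio was taken after 0.5 reads were added. Exact Clopper-Pearson limits on the Cry2scko share of the reads gave its interval, and that of a ratio of ratios is the exact conditional interval of the odds ratio. Per-length levels used the APPRIS principal transcript. Copies were sought with BLAST 2.17.0. Alternatives included DESeq2 1.42.0 size factors. Calculations used Python 3.11.15, scipy 1.17.1 and pandas 2.3.3. The ratio and its intervals were tested on simulated counts with counting error only, which cannot speak to variation between animals or libraries.

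The rule named all 39 genes and Cry2, with full values for the most abundant gene of each step, and other genes of the pathways from 1.5-fold. Members, lists and pairs were chosen with earlier results of these data known, and the pairs after their values were seen.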

Additional observations from a re-analysis of the deposited data

How the results depend on the processing

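No member passed the 2-fold rule under any of the 12 alternatives run, and a threshold of 1.5-fold gave 0 as well. The median log2 ratio of the members ran from -0.15 to -0.10, and 0 of the 38 measured members changed sign under another scaling, the deposited FPKM or 5 added reads. Scaling moved the median of all genes between -0.01 and 0.03, and Aldoa between 0.01 and 0.05, which is wider than its counting interval. Other deeply read genes also left their main intervals under a scaling, among them Eno3 (-0.14), Pkm (-0.11), Pgam2 (-0.15) and Pygm (-0.06). The counts of intervals clear of 0 belong to TMM scaling, and genes with an interval that ends near 0 can cross it under another. The count of 1 in the context list became 0 from a mean CPM of 100, a limit chosen after the data were seen that leaves Pck1 out. Leaving out genes with a near-identical copy was chosen then too. No paired analysis was possible because each genotype has 1 library, and for the same reason none could be left out. Depth limits Aldoc, Pgm2, Pfkl, Pfkp and Pygb most.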
